A study of Mus musculus with 4 samples.

Results

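The mevalonate pathway turns acetyl-CoA into isoprenoid units, and the sterol branch joins these units to squalene and reshapes squalene into cholesterol. Its genes are switched largely by the SREBP transcription factors. When membranes hold little sterol, the escort protein Scap carries SREBP to the Golgi, where it is cut and freed to turn on genes of synthesis and uptake. When sterol is plentiful, the Insig proteins hold Scap and SREBP in the endoplasmic reticulum. Insig1 is itself an SREBP target. Cholesterol is a component of the plasma membrane and of the membranes of secretory granules, which hormone cells make in large amounts.

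The genes described here were 29 members of that system, chosen by symbol among the 32285 genes of each count matrix. They were 8 enzymes of the mevalonate and isoprenoid steps, 12 of squalene and sterol synthesis, 5 genes of SREBP control and 4 of sterol transport and efflux, and all 29 symbols were found. They were followed by single-cell RNA-seq in pituitary glands of male wild-type C57BL/6J mice fed a high-fat diet (HFD) or a control diet (CTRL) for 12 weeks, with 2 libraries per diet, called HFD 1, HFD 2, CTRL 1 and CTRL 2. The glands were dissociated with enzymes, and the droplet assay counted unique molecular identifiers (UMIs) at the 3′ end of polyadenylated RNA. The number of glands in a library is not given in the labels, nor whether libraries came from different animals, so p-values measure only the spread between these libraries, which may be technical.

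The deposited barcodes held 74758237 UMIs in HFD 1, 97223297 in HFD 2, 92818116 in CTRL 1 and 101903367 in CTRL 2. Libraries shared cell barcodes. HFD 1 and HFD 2 had 3116 in common, 38.1% of the smaller library, and in 3101 of these the copy in HFD 2 had over 8 times the UMIs of the copy in HFD 1. HFD 1 and CTRL 2 shared 1423, of which 1402 had such a gap, and the other pairs shared 14 to 22. The shallow copies, 1833 passing barcodes of HFD 1, 87 of CTRL 2 and 1 of CTRL 1, were left out, and 23978 cells were kept. Clusters were named "-like" from marker genes, and 10 classes had at least 30 cells in every library: somatotrope-like (growth hormone cells, 8699 cells), lactotrope-like (prolactin cells, 5178), corticotrope-like (2343), melanotrope-like (1740), stem-like (1396), endothelial-like (1188), gonadotrope-like (954), macrophage-like (466), mesenchymal-like (454) and thyrotrope-like (382). For somatotrope-like cluster 1 and lactotrope-like cluster 9 the best-scoring marker list was that of red blood cells. Both took the class of the next list, since hemoglobin made up 0.317% and 0.235% of their UMIs, below the 10% set for a red blood cell cluster. Cluster 13, with 431 cells, scored best for thyrotrope markers but was set to unnamed by hand, for its leading genes. Its cells are therefore not in the thyrotrope-like class. Hemoglobin UMIs were found in 44.0% to 64.3% of the cells of every cluster. The gland's defining RNAs were present, with Gh at 344620 to 436370 of every 1000000 UMIs in the 4 libraries of somatotrope-like cells.

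UMIs were summed per library and class. Levels are counts per 1000000 UMIs of the class total after TMM scaling within the class, written CPM. Differences are log2 values of HFD minus CTRL with their standard error (SE), and adjusted p-values are those of edgeR's quasi-likelihood test over all genes of a class. A gene was called at an adjusted p under 0.05. An exact permutation test of a single gene could not go below 0.333 with 2 libraries against 2. The 3′ UMIs were used to compare a gene with itself between cells, not with another gene.

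The enzymes were spread unevenly over the 10 tested classes, to which the orders that follow are limited. Of the 20 enzymes, 16 had their lowest level in macrophage-like or endothelial-like cells. The highest class was the thyrotrope-like one for 7 of the 29 genes, the stem-like and the mesenchymal-like one for 5 each, the endothelial-like and the macrophage-like one for 3 each, the corticotrope-like one for 2, and the gonadotrope-like, lactotrope-like, melanotrope-like and somatotrope-like ones for 1 each. Sqle, squalene epoxidase, averaged 49.8 ± 9.67 CPM in thyrotrope-like cells and 0.962 CPM in macrophage-like cells (SD, n = 4 libraries, as for the class levels that follow). Fdps, which makes farnesyl diphosphate, and Msmo1, a methylsterol oxidase, were also highest in thyrotrope-like cells, at 81 ± 18.6 and 103 ± 24.3 CPM. For 8 of the 29 genes, all 4 libraries of the highest class lay above those of the class next by mean. Msmo1 was among these 8, but the libraries of 1 further class overlapped those of its highest class. The share of all genes with such a gap was not computed. For the genes outside these 8 the leading classes were within each other's spread.

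Some genes had an order of their own. Pmvk, phosphomevalonate kinase, averaged 538 ± 224 CPM in corticotrope-like and 216 CPM in melanotrope-like cells, against 30.1 CPM in macrophage-like cells. Mvk, the kinase before it in the pathway, was highest in the same classes, at 44.9 ± 13.6 and 24.6 CPM, and for both kinases the libraries of these classes overlapped. Lbr, a sterol reductase that is also a protein of the nuclear envelope, was highest in endothelial-like cells at 47 ± 9.59 CPM among the tested classes. In the small untested T or NK cell-like and pericyte-like classes it averaged 126 and 58.8 CPM before scaling. The pericyte-like cluster scored best for markers of cycling cells, a list not used for naming. Top2a and Ube2c, genes of dividing cells, were among its leading genes beside Rgs5, a pericyte marker. Abca1, the pump that loads cholesterol onto lipoproteins, reached 251 ± 18 CPM in endothelial-like and 236 CPM in macrophage-like cells, and 10.8 CPM in melanotrope-like cells. Npc2, which hands cholesterol out of the lysosome, averaged 1097 ± 63.9 CPM in macrophage-like cells and 380.0 ± 42.1 CPM in lactotrope-like cells, the next of the tested classes, with no overlap of libraries. In the untested pituicyte-like class it averaged 869.5 CPM before scaling.

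**Figure D1:**
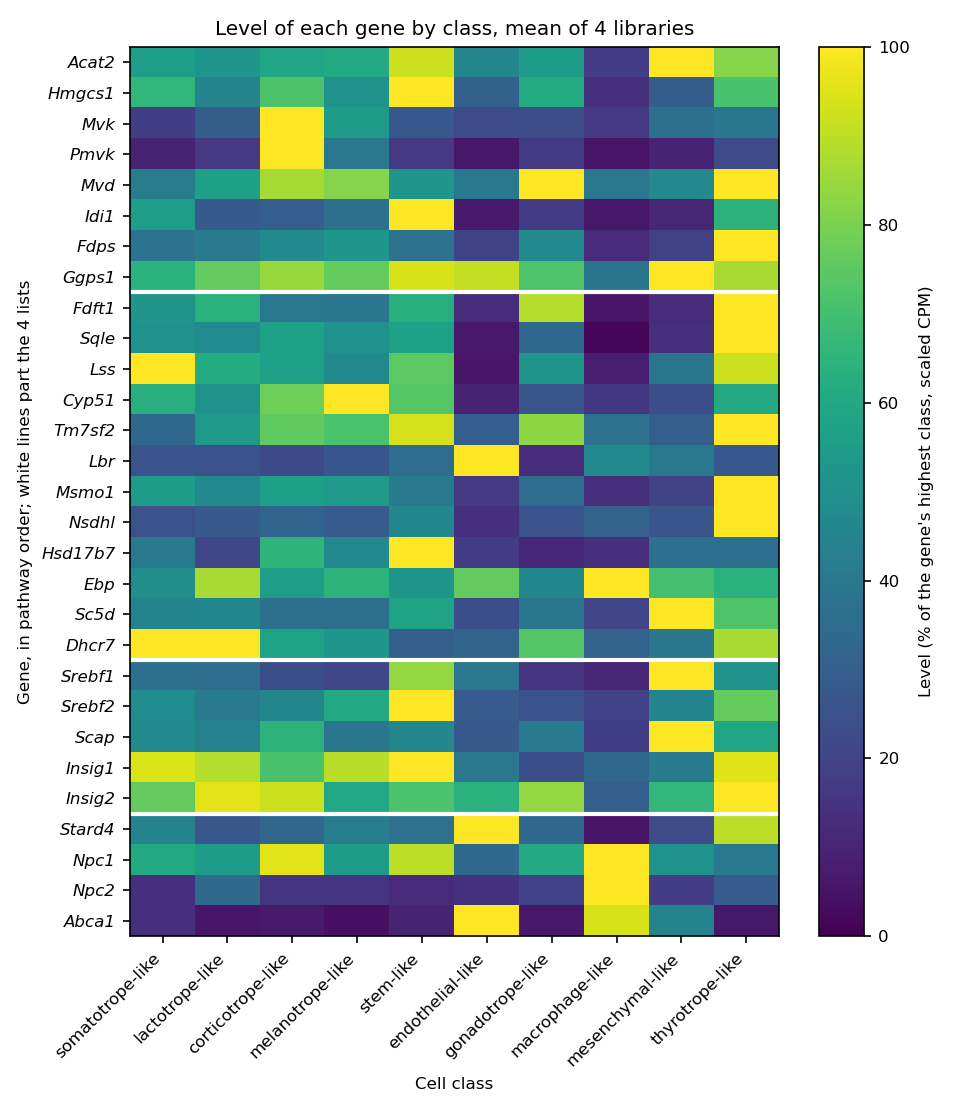
Level of each gene (rows, in pathway order) in the 10 classes (columns), as a percentage of the level in the gene's highest class, from the mean scaled CPM of 4 libraries. Sqle reaches its highest level in the thyrotrope-like column and is near 0% in the macrophage-like one, while Abca1 is highest in the endothelial-like and Npc2 in the macrophage-like column.

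The likeness of these profiles was measured as the correlation of each gene with the mean log2 level of the other enzymes over the 10 classes, with hormone genes left out of the totals. It is a description over classes that share libraries. Sqle had r = 0.99, Msmo1 0.97, Fdps 0.93 and Lss, lanosterol synthase, 0.93. Of the 20 enzymes, 18 had an r above 0.5, and Lbr and Ebp, a sterol isomerase, had -0.58 and -0.29. The share of all genes with such an r was not computed, so these values do not set the enzymes apart from other genes. Among the regulators, Srebf2, the SREBP chiefly tied to sterol genes, had r = 0.85, and Srebf1, the one more tied to fatty acid genes, had 0.38. Abca1 ran opposite to the enzymes at -0.87. Leaving hormone RNA out of the totals made somatotrope-like cells the highest class for 5 genes, against 1 with it, and Hmgcs1 and Insig1 were among the 5.

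Whether these levels differ after the high-fat diet was asked class by class. In somatotrope-like cells most genes lay lower in HFD, although edgeR called no single one. Of the 29 genes, 25 had a log2 difference below 0, against 50.2% of all genes, and the median was -0.25, next to -0.001 over all 14585 genes tested. The HFD libraries lay wholly below the CTRL libraries for 18 of the 29, against 26.7% of all genes, and wholly above for 2, against 25.5%. While 0.0549% of all genes were called in either direction, 16 members had an unadjusted p under 0.05, all of them lower, against 18.2% of all genes. DESeq2 called 11 of the 29, all lower, against 2.99% of all genes in either direction. By step, 10 of the 12 genes of squalene and sterol synthesis lay wholly below CTRL, with a median of -0.59, and 3 of the 8 mevalonate and isoprenoid genes, with a median of -0.06.

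Insig1 had the smallest adjusted p of the 29. It had 39.5 and 51.7 CPM in HFD 1 and HFD 2, against 92 and 108 CPM in CTRL 1 and CTRL 2. The diets were far apart, with a log2 difference of -1.13 (SE 0.14, adjusted p = 0.0787). Idi1, the isomerase that readies isoprenoid units for joining, had the largest difference. Its level was 31.5 and 42.4 CPM in HFD 1 and HFD 2, against 75.8 and 114 CPM in CTRL 1 and CTRL 2, a log2 difference of -1.36 (SE 0.21, adjusted p = 0.0975). Library 2 stood above library 1 in both diets, and the diets did not overlap.

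Hmgcs1, the synthase that makes the precursor of mevalonate, had 34.2 and 35.6 CPM in HFD 1 and HFD 2, against 51.7 and 63.4 CPM in CTRL 1 and CTRL 2. Its log2 difference was -0.72 (SE 0.11, adjusted p = 0.0975). The steps between Hmgcs1 and Idi1 were nearer to 0, with -0.22 for Mvk, 0.11 for Pmvk and -0.03 for Mvd, the decarboxylase. Fdps, the step after Idi1, and Ggps1, which leads to the lipid tails of prenylated proteins, had -0.04 and -0.04, with overlapping libraries. Acat2, the thiolase at the entry of the pathway, had -0.07, also with overlap.

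Past squalene the lower levels ran through most of the branch. Cyp51, which removes a methyl group of lanosterol, had 27 and 35.3 CPM in HFD 1 and HFD 2, against 53.7 and 70.6 CPM in CTRL 1 and CTRL 2 (log2 difference -1.0, SE 0.17, adjusted p = 0.0975). Msmo1, which starts the later removal of a different pair of methyl groups, had 36.9 and 44.9 CPM in HFD 1 and HFD 2, against 68.8 and 78 CPM in CTRL 1 and CTRL 2 (-0.84, SE 0.12, adjusted p = 0.0910). For both genes each HFD library was below each CTRL library. Sqle had 17.8 and 21.7 CPM in HFD 1 and HFD 2, against 29.2 and 34.1 CPM in CTRL 1 and CTRL 2 (-0.68, SE 0.13, adjusted p = 0.107). Hsd17b7, a sterol ketone reductase, had -1.07 at a low level, with 2.75 and 4.01 CPM in HFD and 5.66 and 8.63 CPM in CTRL. Lss, and the desaturase Sc5d and the reductase Dhcr7 of the last steps, had -0.65, -0.58 and -0.60, and Fdft1, squalene synthase, had -0.43. Lbr had -0.30, also without overlap. Tm7sf2, Nsdhl and Ebp, 3 other enzymes of the branch, were at 0.00, 0.05 and -0.08.

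Counts of genes that overlap another gene are uncertain, since the sources used here do not say whether counting used the strand. Of the 29 genes, 15 overlap another annotated gene, 5 of them on the same strand. These 5 are Fdps, Tm7sf2, Lbr, Srebf1 and Srebf2. Cyp51 overlaps Akap9, Idi1 overlaps Gm48574 and Hmgcs1 overlaps Gm48342, each on the opposite strand, while Insig1, Msmo1 and Sqle overlap none.

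The regulators other than Insig1 differed less. Srebf2 had -0.25 without overlap and Srebf1 -0.27 with overlap. Scap and Insig2, the second Insig protein, had -0.04 and -0.06. Of the transport genes, Stard4, a sterol carrier between membranes, had -0.38, Npc2 -0.24 and Abca1 -0.19, each wholly below CTRL. Npc1, the lysosomal partner of Npc2, had 0.16 and lay wholly above CTRL, as did Pmvk.

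**Figure D2:**
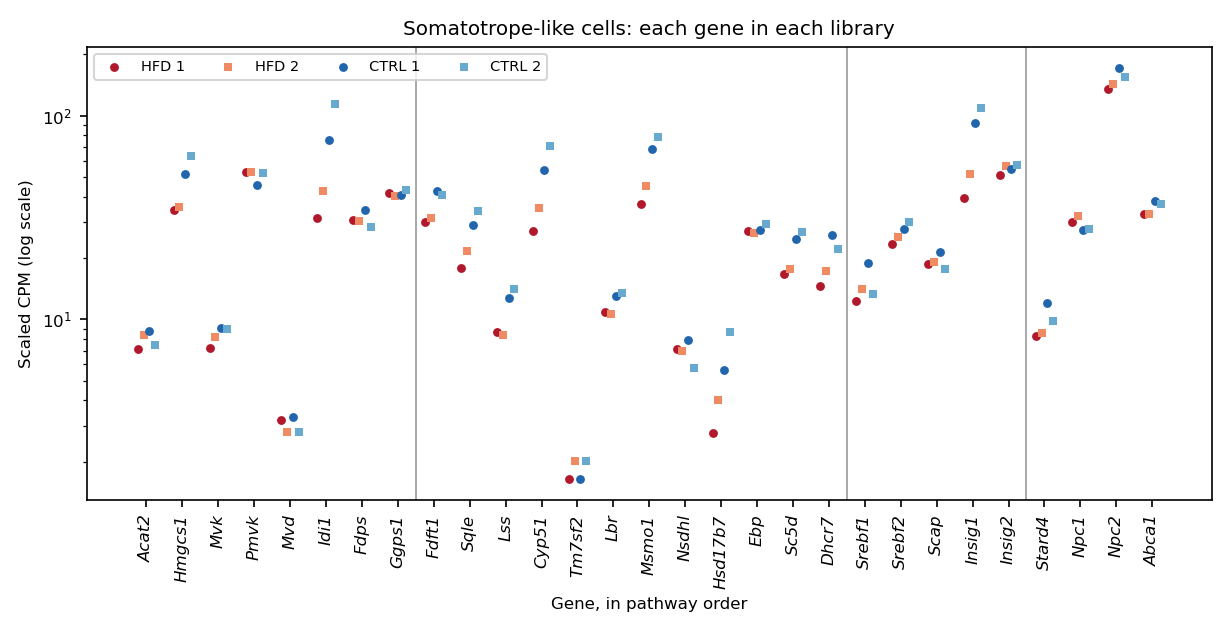
Level of each gene in somatotrope-like cells (scaled CPM, log axis) in HFD 1, HFD 2, CTRL 1 and CTRL 2, in pathway order with lines between the 4 lists. Insig1, Idi1, Cyp51 and Msmo1 show both HFD libraries below both CTRL libraries, while the libraries of Ggps1, Insig2 and Scap lie together.

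Other genes moved with this difference. The summed level of 20 immediate-early genes, which respond to stimulation and to tissue dissociation, was 4561 and 5716 CPM in HFD 1 and HFD 2 of somatotrope-like cells, against 9007 and 12137 CPM in CTRL 1 and CTRL 2. Their median log2 difference was -1.32, with 3 of 20 called lower, and 8 heat shock genes had a median of -0.47. The median cell had 10938 and 10736 UMIs in HFD 1 and HFD 2 and 22010 and 14200 in CTRL 1 and CTRL 2. Its mitochondrial share was 1.69% and 1.52% in HFD 1 and HFD 2, against 1.43% and 1.29% in CTRL 1 and CTRL 2, also without overlap. The class was also filled by different clusters. Cluster 1 held 40.1% and 48.5% of the somatotrope-like cells of HFD 1 and HFD 2, against 15.9% and 11.8% of those of CTRL 1 and CTRL 2. Cluster 3 held 7.21% and 16.2% in HFD, against 59.5% and 41.7% in CTRL. Cluster 4 held 41.7% and 21.9% in HFD, against 9.36% and 7.73% in CTRL, and cluster 6 held 11% and 13.4% in HFD, against 15.2% and 38.8% in CTRL. Hemoglobin genes stood before Gh among the leading genes of cluster 1, and Penk led clusters 4 and 6. The role of immediate-early RNA, of depth and of the mitochondrial share in the result was not tested.

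Red blood cell RNA also moved with the diet in this class, without overlap in its summed level. The summed level of its 6 markers was 1162 and 2122 CPM in HFD 1 and HFD 2, against 529.8 and 83.6 CPM in CTRL 1 and CTRL 2, before scaling. The share of cells with a hemoglobin UMI overlapped, at 57.2% and 60.9% in HFD 1 and HFD 2 and 62.1% and 32.1% in CTRL 1 and CTRL 2. Cells of over 0.1% hemoglobin UMIs numbered 21 and 22 in HFD 1 and HFD 2 and 9 and 7 in CTRL 1 and CTRL 2. With cells of over 0.1% hemoglobin UMIs left out, 25 of the 29 genes were below 0, with a median of -0.26 and 0 called by edgeR. With the whole of cluster 1 left out, 24 were below 0, with a median of -0.29 and 0 called, against 0.936% of all genes.

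The 4 clusters differed in the pathway within each diet. Cluster 6 had the highest level of 22 of the 29 genes. Its summed level of the 20 enzymes was 673 and 738 CPM in HFD 1 and HFD 2 and 913 and 926 CPM in CTRL 1 and CTRL 2, while cluster 1 had 329 and 346 CPM in HFD and 403 and 412 CPM in CTRL. Immediate-early RNA had the same order, with 17456 and 18638 CPM in HFD and 16551 and 21254 CPM in CTRL of cluster 6 and 1698 and 1796 CPM in HFD and 3644 and 3282 CPM in CTRL of cluster 1. The 29 genes were left out of the clustering, but the clusters were made from these same cells, so their order is a description.

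Within the clusters some genes were called, all lower in HFD. Of the 28 genes tested in all 4 clusters, 15 were below 0 in each, against 20.3% of the 11593 genes so tested, and 6 of them, Idi1, Fdft1, Sqle, Cyp51, Msmo1 and Insig1, had the HFD libraries wholly below the CTRL libraries in each, against 3.96%. In cluster 1, Insig1 fell to 33.7 and 33.5 CPM in HFD 1 and HFD 2, against 56.7 and 57.2 CPM in CTRL 1 and CTRL 2 (log2 difference -0.76, SE 0.10, adjusted p = 0.0149). The libraries of a diet were nearly level for it. Idi1 fell to 19.1 and 23 CPM in HFD 1 and HFD 2, against 35.3 and 41.9 CPM in CTRL 1 and CTRL 2 (-0.85, SE 0.15, adjusted p = 0.0416). In that cluster 0.35% of all genes were called lower. Neither gene was called without CTRL 1, with an adjusted p of 0.158 for Insig1 and 0.182 for Idi1, or without CTRL 2, with 0.185 and 0.273. Immediate-early genes had a median of -1.02 in this cluster, and their role was not tested there.

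In cluster 3, Cyp51 fell to 35.9 and 35.4 CPM in HFD 1 and HFD 2, against 53.4 and 62.6 CPM in CTRL 1 and CTRL 2 (-0.70, SE 0.12, adjusted p = 0.0359). Insig1 fell to 61.4 and 63.9 CPM in HFD 1 and HFD 2, against 87 and 102 CPM in CTRL 1 and CTRL 2 (-0.58, SE 0.11, adjusted p = 0.0442). Here 0.356% of all genes were called lower. The summed immediate-early level of the cluster was 9108 and 8880 CPM in HFD and 8667 and 9184 CPM in CTRL, with overlap. By gene, the 19 tested had a median of -0.24, with 13 below 0, 10 wholly below CTRL, 4 called lower and 1 called higher, and their role was not tested. Heat shock RNA summed to 6582 and 6596 CPM in HFD and 5419 and 5518 CPM in CTRL. Neither Cyp51 nor Insig1 was called without HFD 1 (adjusted p = 0.110 and 0.158) or without HFD 2 (0.129 and 0.118).

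In cluster 4, Insig1 fell to 32.5 and 39.4 CPM in HFD 1 and HFD 2, against 73.6 and 61.6 CPM in CTRL 1 and CTRL 2 (-0.94, SE 0.14, adjusted p = 0.0320), and 0.117% of all genes were called lower. It was not called without CTRL 1 (adjusted p = 0.430) or without CTRL 2 (0.166). The summed immediate-early level was 3659 and 4312 CPM in HFD and 5380 and 7020 CPM in CTRL, and its role was not tested. In cluster 6, Idi1 fell to 83.8 and 116 CPM in HFD 1 and HFD 2, against 162 and 178 CPM in CTRL 1 and CTRL 2 (-0.76, SE 0.13, adjusted p = 0.0165), and 0.31% of all genes were called lower. Idi1 was not called without HFD 1 (adjusted p = 0.145). The summed immediate-early level was 17456 and 18638 CPM in HFD and 16551 and 21254 CPM in CTRL, with overlap. By gene, the 19 tested had a median of -0.33, with 14 below 0, 2 called lower and 1 called higher, and their role was not tested. Insig1 in cluster 6 had 84.1 and 119.7 CPM in HFD and 145 and 151 CPM in CTRL (-0.52, adjusted p = 0.122).

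**Figure D3:**
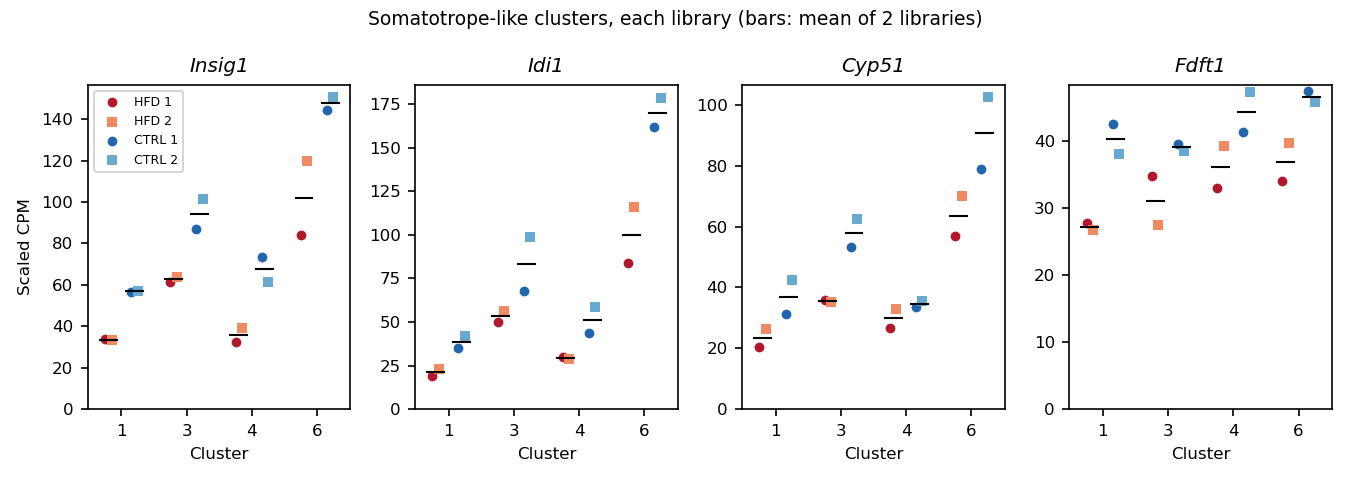
Scaled CPM of Insig1, Idi1, Cyp51 and Fdft1 in the 4 somatotrope-like clusters, one point per library with HFD left of CTRL, and bars at the mean of 2 libraries. Both HFD points lie below both CTRL points in each cluster for each of these genes.

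Windows are shown for the 5 genes with the largest differences in somatotrope-like cells, among those averaging at least 20 CPM, for the short motifs they hold. Each is the 250 bases before the RefSeq start on GRCm38.p6, 5′ to 3′ on the gene's strand. In the GENCODE annotation Insig1, Idi1, Cyp51 and Msmo1 start within their windows, so part of each of these windows lies inside the gene. The CCAAT boxes of Idi1, Cyp51 and Msmo1 lie past that start. Capitals mark TCACNCCAC, the core of a classical sterol regulatory element, CCAAT, the box bound by NF-Y, and GGGCGG, the box bound by Sp1, on either strand.
Insig1 (chr5:28071162-28071411, plus strand): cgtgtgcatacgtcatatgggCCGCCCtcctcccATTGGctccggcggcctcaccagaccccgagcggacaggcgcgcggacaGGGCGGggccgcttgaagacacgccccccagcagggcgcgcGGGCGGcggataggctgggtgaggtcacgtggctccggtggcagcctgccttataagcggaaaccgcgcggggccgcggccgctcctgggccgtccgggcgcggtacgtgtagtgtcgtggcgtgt
Idi1 (chr13:8885356-8885605, plus strand): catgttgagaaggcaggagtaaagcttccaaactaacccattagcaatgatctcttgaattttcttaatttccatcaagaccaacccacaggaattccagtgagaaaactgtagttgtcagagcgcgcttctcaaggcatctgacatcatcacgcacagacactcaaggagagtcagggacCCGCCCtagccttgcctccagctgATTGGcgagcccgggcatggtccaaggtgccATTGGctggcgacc
Cyp51 (chr5:4104698-4104947, minus strand): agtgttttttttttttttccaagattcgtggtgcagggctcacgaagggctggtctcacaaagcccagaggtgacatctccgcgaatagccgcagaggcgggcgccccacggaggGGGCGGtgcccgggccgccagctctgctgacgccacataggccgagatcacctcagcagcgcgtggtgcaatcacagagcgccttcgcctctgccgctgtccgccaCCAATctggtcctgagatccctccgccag
Msmo1 (chr8:64733579-64733828, minus strand): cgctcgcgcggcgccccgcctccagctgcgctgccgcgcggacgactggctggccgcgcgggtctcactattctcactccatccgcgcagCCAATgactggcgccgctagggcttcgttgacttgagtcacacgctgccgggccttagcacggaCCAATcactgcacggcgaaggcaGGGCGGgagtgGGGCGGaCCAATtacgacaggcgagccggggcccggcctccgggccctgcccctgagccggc
Hmgcs1 (chr13:119690101-119690350, plus strand): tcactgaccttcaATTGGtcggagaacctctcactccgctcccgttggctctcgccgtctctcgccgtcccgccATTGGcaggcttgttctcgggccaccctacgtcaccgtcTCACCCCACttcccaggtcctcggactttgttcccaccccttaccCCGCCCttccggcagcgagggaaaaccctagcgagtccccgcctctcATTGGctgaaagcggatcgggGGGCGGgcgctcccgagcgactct
Each of the 5 windows held CCAAT and GGGCGG on one strand or the other, and no motif overlapped another in them. CCAAT occurred 3 times in Msmo1 and in Hmgcs1, and of these 5 only Hmgcs1 held TCACNCCAC. Of the 29 genes, 24 had a window in the table. CCAAT was found for 21 of the 24, against 37.5% of the 27025 genes in it, GGGCGG for 22, against 35.4%, and TCACNCCAC for 1, against 1.22%. A gene with several windows counted if any of them matched. By window, CCAAT was in 22 of the 32 of these genes, against 33.85% of all 32851, and GGGCGG in 25, against 32.7%. The 27025 genes were not limited to those expressed in these cells, so the shares do not set the 24 apart from other expressed genes. Ggps1 and Insig2, whose somatotrope-like libraries overlapped between the diets, held CCAAT as well. A match is only a match of letters.

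Whether the diet difference varied between classes was tested in 1 model of the 10 classes with the library as a block. Insig1 was the only one of the 29 genes to pass (F = 7.79, adjusted p = 0.0282), as 24 of 15709 genes did, 0.153%. Idi1 and Cyp51 came next, at an adjusted p of 0.180 each. In lactotrope-like cells Insig1 had 67.6 and 79.4 CPM in HFD 1 and HFD 2, against 68 and 59.7 CPM in CTRL 1 and CTRL 2, a log2 difference of 0.21, next to -1.13 in somatotrope-like cells. Its libraries overlapped between the diets in lactotrope-like, corticotrope-like, melanotrope-like and thyrotrope-like cells, and in the other 6 classes the HFD libraries lay wholly below the CTRL libraries. Insig1 did not pass without HFD 1 (adjusted p = 1.00) or without HFD 2 (0.704), and it passed without CTRL 1 (0.0365) or CTRL 2 (0.0348).

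In lactotrope-like cells most genes lay above 0. Of 29 genes, 10 were below 0, against 49.6% of all genes, with a median of 0.07 next to 0.002 over all genes. The median ran from 0.023 without CTRL 2, where 13 genes were below 0, to 0.13 without CTRL 1. No member was called by edgeR or DESeq2, against 1.04% and 1.18% of all genes, and 3 had an unadjusted p under 0.05, all with higher levels, against 11.1% of all genes. Srebf2 had 28.4 and 23.5 CPM in HFD 1 and HFD 2, against 21.6 and 17.9 CPM in CTRL 1 and CTRL 2 (0.40, SE 0.14, adjusted p = 0.280). Npc2 had 438 and 385 CPM in HFD, against 347 and 349.8 CPM in CTRL (0.24, SE 0.10, adjusted p = 0.377). Both lay wholly above CTRL, as did 9 of the 29 genes and 20.5% of all genes, while 3 lay wholly below, against 20.3%. Immediate-early RNA summed to 5800 and 5568 CPM in HFD 1 and HFD 2 of this class, against 6862 and 7344 CPM in CTRL 1 and CTRL 2, and 18 of the 20 genes were below 0, 9 of them with an unadjusted p under 0.05. The median cell had 10030 and 11150 UMIs in HFD 1 and HFD 2 and 17090 and 12554 in CTRL 1 and CTRL 2, with mitochondrial shares of 2.06% and 2.03% in HFD and 1.95% and 1.7% in CTRL. None of these measures overlapped between the diets, and their role was not tested. Without HFD 2, Mvk was called higher (0.69, adjusted p = 0.0175), against 3.46% of all genes called in that fit. HFD 1 alone was high for it, with 18.6 and 11.4 CPM in HFD 1 and HFD 2 and 12.5 and 10.7 CPM in CTRL. In the 2 lactotrope-like clusters no member was called by edgeR or DESeq2, against 0.911% and 0.0283% of all genes by edgeR and 1.15% and 0.0345% by DESeq2, and 3 and 0 had an unadjusted p under 0.05, against 11.4% and 7.58%.

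**Figure D4:**
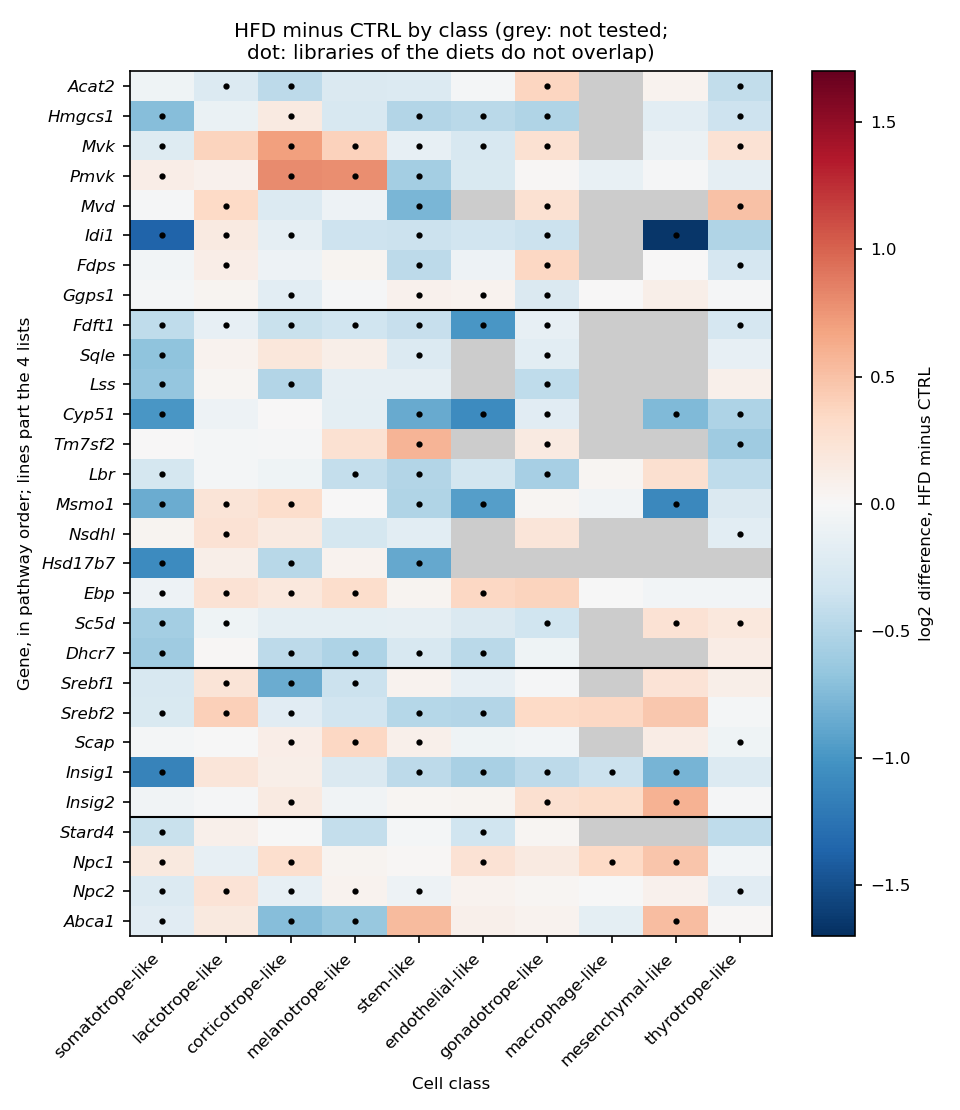
Log2 difference, HFD minus CTRL, of each gene (rows) in each of the 10 classes (columns), blue for lower and red for higher in HFD, with a dot where the libraries of the diets do not overlap and grey where low counts allowed no test. The somatotrope-like column is blue for 25 of 29 genes, and the Fdft1 row is blue with a dot in each of the 8 classes tested.

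In stem-like cells, named from progenitor markers such as Sox2, most genes lay below 0, as in somatotrope-like cells. Of 29 genes, 21 were below 0, against 50.6% of all genes, with a median of -0.24 next to -0.003, and 16 lay wholly below CTRL, against 18.1% of all genes, and 3 wholly above, against 19.2%. The median was -0.16 without HFD 1 and -0.28 without CTRL 2. The class's own 7 markers summed to 14745 and 15185 CPM in HFD and 10607 and 12764 CPM in CTRL before scaling, without overlap. Neither edgeR, which called 0% of all genes, nor DESeq2, which called 0.0751%, called a member, and 7 had an unadjusted p under 0.05, all lower, against 6.08% of all genes. Cyp51 had 34.6 and 43.3 CPM in HFD 1 and HFD 2, against 63 and 79 CPM in CTRL 1 and CTRL 2 (-0.86, SE 0.17, adjusted p = 0.787). Hsd17b7 had 8.87 and 9.06 CPM in HFD, against 15.5 and 17.4 CPM in CTRL (-0.87). Hmgcs1, Srebf2 and Insig1 also lay wholly below CTRL. Hmgcs1 had 53.2 and 62.8 CPM in HFD, against 82.5 and 81.5 CPM in CTRL (-0.50). Srebf2 had 43 and 48 CPM in HFD, against 57.9 and 69.9 CPM in CTRL (-0.49), and Insig1 59.1 and 71.4 CPM in HFD, against 90.4 and 88 CPM in CTRL (-0.45). Msmo1 had -0.52 and Idi1 -0.36. Pmvk had -0.58, with CTRL 2 apart, at 67.6 and 73.9 CPM in HFD and 74.8 and 137 CPM in CTRL. The summed immediate-early level was 29897 and 37084 CPM in HFD and 34037 and 32378 CPM in CTRL, with overlap. Gh, a somatotrope gene, was found in these cells at 3946 and 12353 CPM in HFD and 28309 and 11702 CPM in CTRL before scaling, and the role of these RNAs in the values was not tested.

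Fdft1 had the same direction in every class where it could be tested. Its HFD libraries lay wholly below its CTRL libraries in all 8. By edgeR it was called in none of them, and DESeq2 called it in somatotrope-like cells (adjusted p = 0.0401). Of the 9062 genes tested in at least 8 of the 10 classes, 2 lay so in every class tested, 0.0221%, and Fdft1 was 1 of them. Genes tested in more classes than Fdft1 had to lie so in each of them, a stricter rule. In gonadotrope-like cells the gap was narrow, with 61.9 and 55.7 CPM in HFD 1 and HFD 2, against 62.4 and 66.1 CPM in CTRL 1 and CTRL 2. In corticotrope-like cells it had 24.1 and 24.2 CPM in HFD, against 32.6 and 30.0 CPM in CTRL, and in melanotrope-like cells 24.9 and 23.2 CPM in HFD, against 30.0 and 30.2 CPM in CTRL. Here the libraries of each diet were close together and the diets apart. The log2 difference ran from -0.13 in gonadotrope-like cells to -0.99 in endothelial-like cells, where 14 and 10 UMIs in HFD stood against 33 and 23 in CTRL. The classes share the same 4 libraries and are not independent. Fdft1 overlaps Ctsb, a gene on the opposite strand.

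**Figure D5:**
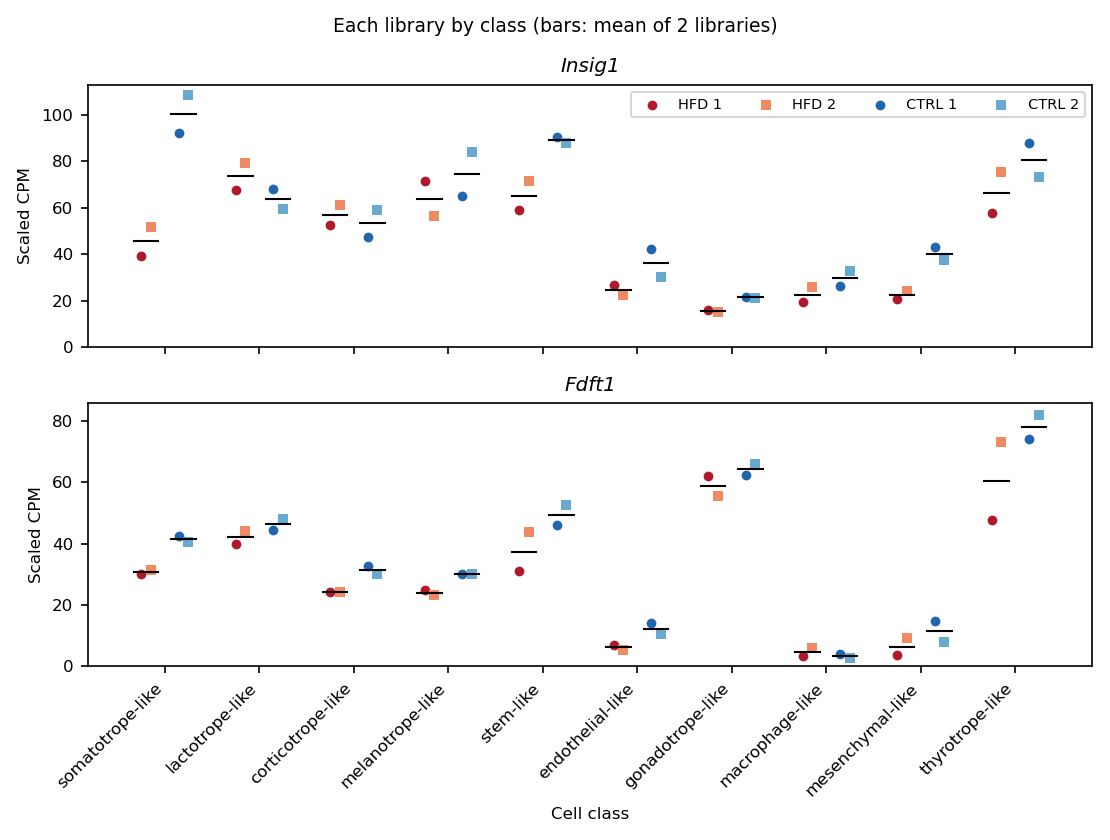
Scaled CPM of Insig1 and Fdft1 in the 10 classes, one point per library with HFD left of CTRL, and bars at the mean of 2 libraries. The HFD points of Insig1 lie far below the CTRL points in somatotrope-like cells and mix with them in lactotrope-like and corticotrope-like cells, and those of Fdft1 lie below the CTRL points in the 8 classes tested.

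Gonadotrope-like cells gave the smallest adjusted p of any gene of the list among the 10 classes. Hmgcs1 had 35.1 and 35.9 CPM in HFD 1 and HFD 2, against 50.8 and 50.6 CPM in CTRL 1 and CTRL 2 (-0.51, SE 0.11, adjusted p = 0.0619). Libraries of the same diet differed by under 1 CPM. Hmgcs1 was called without CTRL 1 (adjusted p = 0.0294), where 8.92% of all genes were called. It was also called with the shallow barcode copies kept (adjusted p = 0.0481), as 1.75% of all genes were, and with cells of over 0.1% hemoglobin UMIs left out (0.0490), as 1.83% were. Insig1 had 16.1 and 15.4 CPM in HFD, against 21.5 and 21.4 CPM in CTRL (-0.45, adjusted p = 0.135). The list had a median of 0.03, with 13 of 28 genes below 0, against 49.5%, and 10 wholly below CTRL, against 26% of all genes, and 6 wholly above, against 27.3%. The median was -0.096 without CTRL 1, -0.047 without CTRL 2 and -0.054 without HFD 2. No member was called by edgeR or DESeq2, against 1.23% and 3.25% of all genes, and 5 had an unadjusted p under 0.05, of which 3 were lower, against 21.6% of all genes. The summed immediate-early level was 3376 and 3490 CPM in HFD and 4857 and 5074 CPM in CTRL, with 9 of the 20 genes called lower. The class's own markers summed to 204750 and 198770 CPM in HFD and 151400 and 169730 CPM in CTRL before scaling. The median mitochondrial share was 3.22% and 3.22% in HFD and 3.70% and 3.46% in CTRL. None of these measures overlapped between the diets, and their role was not tested.

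In corticotrope-like cells, which make ACTH, the kinases Mvk and Pmvk lay above CTRL. Mvk had 51.6 and 59.4 CPM in HFD 1 and HFD 2, against 28.2 and 40.2 CPM in CTRL 1 and CTRL 2 (0.70, SE 0.17, adjusted p = 0.196). Pmvk had 728 and 639 CPM in HFD, against 217 and 568 CPM in CTRL (0.80, SE 0.32, adjusted p = 0.462), and CTRL 1 stood apart from the other 3 libraries. Without CTRL 2, which leaves CTRL 1 as the only control, Pmvk had 1.66 and 4 members were called, Pmvk (adjusted p = 8.43e-30) and Mvk (6.27e-07) higher, and Abca1 (1.91e-04) and Srebf1 (0.00128) lower, while 6.68% of all genes were called in that fit. Abca1 had 15 and 12.2 CPM in HFD, against 26.1 and 18.5 CPM in CTRL (-0.72, SE 0.21, adjusted p = 0.296). The median of the list was -0.07, and 11 of 29 genes lay wholly below CTRL, against 21.1% of all genes, and 8 wholly above, against 20.1%. The median was -0.0082 without CTRL 1 and -0.014 without HFD 2. By edgeR or DESeq2 no member was called, against 0.207% and 0.696% of all genes, and 3 higher and 3 lower had an unadjusted p under 0.05, against 9.65% of all genes. Gh was at 3924 and 7628 CPM in HFD and 22702 and 4487 CPM in CTRL of these cells before scaling, highest in CTRL 1, and the lactotrope markers summed to 709 and 687 CPM in HFD and 3809 and 2336 CPM in CTRL, without overlap. Their role was not tested.

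Melanotrope-like cells, which make POMC in the intermediate lobe, had the same signs for Pmvk and Abca1. Pmvk had 347 and 204 CPM in HFD 1 and HFD 2, against 149 and 165 CPM in CTRL 1 and CTRL 2 (0.80, SE 0.22, adjusted p = 0.785), and HFD 1 was the high library. Abca1 had 8.40 and 8.38 CPM in HFD, against 13.5 and 12.7 CPM in CTRL (-0.64, SE 0.20, adjusted p = 0.785). The list had a median of -0.16, which turned to 0.027 without CTRL 2 and 0.066 without HFD 2, with 12 of 29 genes below 0 in each of these. Without CTRL 1 it was -0.27, with 22 below 0. Before scaling, somatotrope markers summed to 4747 and 7996 CPM in HFD and 22867 and 8674 CPM in CTRL of this class and lactotrope markers to 436 and 916 CPM in HFD and 4123 and 1448 CPM in CTRL, neither with overlap, and their role was not tested. Neither edgeR, which called 0.00771% of all genes, nor DESeq2, which called 0.03%, called a member, and 1 higher and 2 lower had an unadjusted p under 0.05, against 6.05% of all genes.

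In the vascular, connective and immune classes fewer of the 29 genes had the counts for a test, 23 in endothelial-like, 20 in mesenchymal-like and 11 in macrophage-like cells. In endothelial-like cells 17 of 23 genes were below 0, against 50.9% of all genes, with a median of -0.26. Without CTRL 1 the median was -0.060, with 13 of 25 below 0. CTRL 1 also stood apart in RNA of 2 kinds of hormone cells. Before scaling, thyrotrope markers summed to 313 and 414 CPM in HFD 1 and HFD 2 and 5232 and 350.0 CPM in CTRL 1 and CTRL 2, and gonadotrope markers to 254 and 359.5 CPM in HFD and 3921 and 318 CPM in CTRL. Red blood cell markers summed to 7261 and 9644 CPM in HFD 1 and HFD 2 of this class, against 118 and 56.9 CPM in CTRL 1 and CTRL 2, without overlap. With cells of over 0.1% hemoglobin UMIs left out, 16 of 23 genes were below 0, with a median of -0.23. The role of the thyrotrope and gonadotrope RNA was not tested. Cyp51 had 5.88 and 3.78 CPM in HFD 1 and HFD 2, against 11.1 and 9.45 CPM in CTRL 1 and CTRL 2 (-1.07, SE 0.41). Insig1 had 26.9 and 22.7 CPM in HFD, against 42.2 and 30.2 CPM in CTRL (-0.55). Abca1, in the class where it was highest, had 243 and 274 CPM in HFD, against 253 and 232 CPM in CTRL (0.09), with overlap.

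In mesenchymal-like cells Msmo1 had 15.8 and 11.8 CPM in HFD 1 and HFD 2, against 34.1 and 23.6 CPM in CTRL 1 and CTRL 2 (-1.10, SE 0.37). Insig1 had 21 and 24.3 CPM in HFD, against 43.1 and 37.4 CPM in CTRL (-0.79, SE 0.29). These rest on 74 and 116 UMIs over the 4 libraries. Idi1 had 12.3 and 2.63 CPM in HFD, against 14.8 and 20.6 CPM in CTRL (-1.65, SE 0.68, adjusted p = 0.991), on 42 UMIs. Abca1 had 110.3 and 153 CPM in HFD, against 95 and 90.5 CPM in CTRL (0.52), and Insig2 75.3 and 42.8 CPM in HFD, against 34.1 and 39.3 CPM in CTRL (0.59), with HFD 1 apart. Srebf1, highest in this class among those tested, had 49 and 36.2 CPM in HFD, against 49 and 23.6 CPM in CTRL, with overlap. Red blood cell markers were higher in HFD here too, at 120.4 and 1039 CPM in HFD and 70.4 and 50.2 CPM in CTRL, as they were in macrophage-like cells, at 8167 and 326 CPM in HFD and 97 and 40.4 CPM in CTRL. In mesenchymal-like cells the stem markers summed to 268 and 297 CPM in HFD and 784 and 779 CPM in CTRL, the pericyte markers to 881 and 727 CPM in HFD and 1394 and 1291 CPM in CTRL, and the lactotrope markers to 679 and 1916 CPM in HFD and 23137 and 4926 CPM in CTRL, each lower in HFD without overlap. The role of these RNAs was not tested. In macrophage-like cells Npc1 had 53.6 and 54.1 CPM in HFD, against 39.8 and 45.5 CPM in CTRL (0.34). Npc2, whose level there was the highest of the 10 tested classes, had 1150 and 1037 CPM in HFD, against 1154 and 1047 CPM in CTRL (-0.01), with overlap, and Insig1 had -0.37 on 86 UMIs. No member was called in these 3 classes by edgeR or DESeq2, against 0.0389% of all genes in endothelial-like, 0.0112% in mesenchymal-like and 0% in macrophage-like cells by edgeR, and 0.0336%, 0.0173% and 0.013% by DESeq2. An unadjusted p under 0.05 was found for 3 members in endothelial-like, 4 in mesenchymal-like and 0 in macrophage-like cells, against 3.1%, 4.4% and 5.91% of all genes. Differences of the size seen in somatotrope-like cells may not be detectable at such counts.

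Thyrotrope-like cells had 21 of 28 genes below 0, against 49.9% of all genes, and a median of -0.15. The median was -0.064 without HFD 1 and -0.095 without CTRL 1. Red blood cell markers summed to 6096 and 1761 CPM in HFD 1 and HFD 2, against 55.6 and 41.3 CPM in CTRL 1 and CTRL 2. With cells of over 0.1% hemoglobin UMIs left out, 21 of 28 genes were below 0, with a median of -0.16. Immediate-early genes summed to 831 and 1343 CPM in HFD and 1292 and 1464 CPM in CTRL, and 12 of the 14 tested were below 0, with a median of -0.45. Their role was not tested. Cyp51 had 30.1 and 42.5 CPM in HFD 1 and HFD 2, against 58.9 and 50.8 CPM in CTRL 1 and CTRL 2 (-0.53, SE 0.19, adjusted p = 0.564). Idi1 had 42.5 and 77.7 CPM in HFD, against 108 and 75.6 CPM in CTRL (-0.51, SE 0.19, adjusted p = 0.640), with overlap, and Sqle 39 and 54 CPM in HFD, against 61 and 45.3 CPM in CTRL (-0.14), also with overlap. In this class edgeR called 0.287% of all genes but no member, DESeq2, which called 0.0912%, called no member either, and 3 members had an unadjusted p under 0.05, all lower, against 6.72% of all genes. Single libraries changed this. Without HFD 2, Idi1 (adjusted p = 3.18e-04), Msmo1 (0.0290) and Fdps (0.0485) were called lower, against 0.772% of all genes called, and without CTRL 2, Idi1 (0.0262), against 0.386%.

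Summed over all kept cells, the whole gland mixed these classes. Insig1 had 48.4 and 54.7 CPM in HFD 1 and HFD 2, against 73 and 78.5 CPM in CTRL 1 and CTRL 2 (-0.56, SE 0.09, adjusted p = 0.326). No member was called by edgeR, against 0.0108% of all genes, 11 had an unadjusted p under 0.05, all lower, against 9.8%, and DESeq2 called 4, against 1.06%. Of 29 genes, 16 lay wholly below CTRL, against 21.6% of all genes, and 4 wholly above, against 21.3%. The median was -0.15, and -0.025 without CTRL 1. Without HFD 2, Insig1 (adjusted p = 0.0298) and Idi1 (0.0168) were called lower, against 0.995% of all genes called. Immediate-early RNA lay lower as well, at 7995 and 9605 CPM in HFD 1 and HFD 2 and 10893 and 11560 CPM in CTRL 1 and CTRL 2, and 11 of its 20 genes had an unadjusted p under 0.05, all lower. Its role was not tested. In such a sum, fewer cells of a class and less RNA per cell cannot be told apart.

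Related genes were counted beside the 29. They were 39 genes of other sterol steps, isoprenoid branches, SREBP cleavage and sterol-driven degradation, efflux, and lysosomal and membrane transfer. In somatotrope-like cells edgeR called none of them. Their median was -0.13, with 21 below 0, against 50.2% of all genes, and 1 higher and 6 lower had an unadjusted p under 0.05, against 18.2%. Both shares were near those of all genes. In gonadotrope-like cells 1 of the 38 tested was called, the lipoprotein receptor Vldlr, which fell to 58.6 and 59.9 CPM in HFD 1 and HFD 2, against 88.5 and 114 CPM in CTRL 1 and CTRL 2 (-0.76, SE 0.13, adjusted p = 0.0357), where edgeR called 1.23% of all genes. Vldlr was not called without HFD 1 (adjusted p = 0.0987) or without HFD 2 (0.130). No related gene was called by edgeR or DESeq2 in the other 9 classes, where 0 to 7 had an unadjusted p under 0.05, against 3.1% to 18.2% of all genes. In the whole gland edgeR called none, 5 had such a p, against 9.8%, and DESeq2 called 1, against 1.06%.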

How the data were processed

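Per the labels, pituitaries of male C57BL/6J mice were dissociated and run as 4 libraries on a 10x 3′ v3.1 assay. The deposited matrices hold UMI counts per gene and barcode. The submitters' processing notes name Cell Ranger 6.1.2, Seurat 4.3 and the mm10 build, and the sources used here do not say whether counting used the strand.

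Of 34737 barcodes, 27220 passed a floor of 500 genes and a ceiling of 20% mitochondrial UMIs. For a barcode shared between libraries, a copy with under an eighth of the UMIs of its deepest copy was left out, which removed 1921 passing barcodes, and 1321 simulated-doublet calls were removed. Cells were clustered on 2000 variable genes, with the 29 genes and 39 related ones left out, using 30 components, 20 neighbours and Leiden resolution 0.8 (Python 3.11.15, scanpy 1.11.5, leidenalg 0.10.2). Of 19 clusters, 2 with 634 cells were set to unnamed by hand, for their leading genes. Cluster 13 (431 cells) scored best for thyrotrope markers, but Cck, Apoc3 and Stmn2 were among its leading genes, with RNA of several hormones. Cluster 16 (203 cells) scored best for granulocyte markers but was led by genes of B cells and of dendritic cells together. In all, 13 classes were named, of which 10 were tested.

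Counts were summed per library and class and tested with edgeR 4.0.16 in R 4.3.3 (TMM, filterByExpr, quasi-likelihood F-test, Benjamini-Hochberg over all genes of the class), 2 HFD against 2 CTRL libraries, with DESeq2 1.42.0 as an alternative. An adjusted p from edgeR or DESeq2 under 0.05 was a call. The edgeR fit was tested on simulated data. Other alternatives were RLE scaling, no filter, stricter cells, hormone and mitochondrial genes left out, each library left out, the replicate number as a block and, chosen after seeing the data, the shallow copies kept, cells of over 0.1% hemoglobin UMIs left out and somatotrope-like cluster 1 left out.

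A gene was named with its library values where it was called, where it averaged at least 20 CPM without overlap and differed by at least 0.5 on the log2 scale (at most 6 a class), where its p was among the 2 smallest of a class, or, for 9 preset genes, in the class of its highest level. Others are named to complete the pathway and were chosen after their values were seen. Members and lists were chosen with earlier results of these data known. Promoter windows come from RefSeq.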

Additional observations from a re-analysis of the deposited data

Results flagged for a closer look

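The diet difference of Insig1 was set apart by a test of the difference itself, the diet-by-class term over the 10 classes, with an adjusted p of 0.0282 by edgeR. Its log2 difference was -1.13 in somatotrope-like cells and 0.21 in lactotrope-like cells. The adjusted p was 0.0162 with the shallow barcode copies kept. It was 1.00 with HFD 1 left out, 0.704 with HFD 2 left out, 0.0365 with CTRL 1 left out and 0.0348 with CTRL 2 left out. Its cause was not tested.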

How the results depend on the processing

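Of 534 recomputed values of named genes, 527 kept their direction. The others, none of them called, were log2 differences of Npc2 in macrophage-like cells (0.00033 by DESeq2, 0.024 with no filter on low counts, and -0.085 to 0.066 with each library left out), Srebf1 in mesenchymal-like cells (-0.24 to 0.81 with each library left out) and Sqle in thyrotrope-like cells (-0.46 to 0.096 with each library left out). DESeq2 called 11 of the 29 genes in somatotrope-like cells and 4 in the whole gland, against 0 in each by edgeR, while it called 2.99% and 1.06% of all genes. With no filter, the members called numbered 2 in the whole gland, 4 in corticotrope-like, 1 in melanotrope-like, 4 in stem-like and 1 in gonadotrope-like cells, 4 in somatotrope-like cluster 1, 4 in cluster 3, 2 in cluster 4 and 5 in cluster 6, and 8 genes had a difference that varied between classes. The share of all genes called in these fits was 0.214% in the whole gland, 1.85%, 0.579%, 1.61% and 6.46% in those classes, 3.11%, 2.84%, 1.56% and 1.72% in those clusters, and 2.97% between classes. With shallow barcode copies kept, gonadotrope-like cells had 1, and likewise with cells of over 0.1% hemoglobin UMIs left out. With each library left out in turn, the count ran from 0 to 2 in the whole gland, 0 to 1 in lactotrope-like, 0 to 4 in corticotrope-like, 0 to 1 in gonadotrope-like and 0 to 3 in thyrotrope-like cells, 0 to 3 in cluster 1, 0 to 4 in cluster 3, 0 to 2 in cluster 4, 0 to 6 in cluster 6, 0 to 1 in lactotrope-like cluster 0 and 0 to 3 for the diet-by-class test. The highest of these counts stood against 0.995% of all genes called in the whole gland, 3.46%, 6.68%, 8.92% and 0.772% in those classes, 2.86%, 2.22%, 2.12% and 3.87% in clusters 1, 3 and 6 and lactotrope-like cluster 0, 0.506% and 2.18% in cluster 4, and 1.51% between classes. In such fits the lone library of a diet is assumed to vary like the others. Of the related genes, DESeq2 called 1 in the whole gland. With no filter 2 were called in lactotrope-like, 3 in corticotrope-like, 2 in stem-like and 2 in gonadotrope-like cells, and with libraries left out 0 to 1 in lactotrope-like, 0 to 5 in corticotrope-like, 0 to 2 in gonadotrope-like and 0 to 1 in macrophage-like cells. The causes were not tested.

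The labels number the libraries 1 and 2 in each diet but do not say that a number marks a shared animal or day. Deviations of same-numbered libraries correlated with r between -0.099 in somatotrope-like and 0.407 in endothelial-like cells. Immediate-early RNA of endothelial-like cells summed to 20771 and 40854 CPM in HFD 1 and HFD 2 and 20547 and 38933 CPM in CTRL 1 and CTRL 2. In mesenchymal-like cells it summed to 12327 and 27719 CPM in HFD and 12609 and 26053 CPM in CTRL. In both classes library 2 was the higher in each diet, and the cause was not tested. With the replicate number as a block, 8 members were called in somatotrope-like cells, 5 in cluster 1, 4 in cluster 3, 2 in cluster 4 and 0 in cluster 6, where Idi1 had an adjusted p of 0.0774. Of all genes this fit called 1.62% in the class and 5.44%, 2.86%, 2.18% and 0.0755% in these clusters. It called 1 related gene in corticotrope-like and 0 in gonadotrope-like cells. In endothelial-like cells it called 74 of 10291 genes, against 4 without the block, and no member in either. Stricter cells and kept copies were not run within clusters. Counts of most members were low in the small classes, which limits the precision there.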

Other observations

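The classes too small for a diet test had levels of their own. In pituicyte-like cells, glia of the posterior lobe (222 cells), Srebf1 had 386 and 193 CPM in HFD 1 and HFD 2 and 223 and 298 CPM in CTRL 1 and CTRL 2, before TMM scaling. Its highest mean in a tested class was 39.5 CPM, in mesenchymal-like cells. Npc2 averaged 869.5 CPM in pituicyte-like cells. Insig2 averaged 148 CPM there before scaling, and 72.3 CPM in thyrotrope-like cells, its highest tested class. Insig1, at 78.9 CPM, was near its level in stem-like cells, its highest tested class at 77.2 CPM. The libraries of the diets overlapped for Srebf1, and no diet comparison was made in this class. These levels were singled out after they were seen.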
